A study of Saccharomyces cerevisiae S288C with 6 samples.

Results

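The genes described here encode the enzymes by which budding yeast makes histidine, lysine, the aromatic amino acids, the branched-chain amino acids, threonine and asparagine, together with GCN4, the gene of their shared transcriptional activator. They were chosen by name, 1 activator gene and 36 enzyme genes, and all 37 had a single probe set among the 5449 Saccharomyces cerevisiae genes of the array. The PFA group consisted of 3 cultures of strain S288C given plakortide F acid (PFA), a sponge-derived endoperoxide with antifungal activity, at its IC50 of 0.62 ug/ml, a growth-inhibiting dose. The DMSO group consisted of 3 cultures of the same strain given the solvent at 0.25%. Agents were added at an optical density of 0.2 and cells were collected at 0.5, after growth in synthetic dextrose medium buffered with MOPS at neutral pH. The labels do not say which amino acids the medium held, how much time passed before harvest, or whether PFA was delivered with solvent at the same percentage.

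Each culture was read on 1 Affymetrix yeast array, and the deposited values are linear signals that the authors had scaled to a common trimmed mean (999.5 to 999.6 on the 6 arrays). The number of arrays limits the precision, and the titles call the samples biological replicates. Of all S. cerevisiae genes, 5356 had a mean signal above a background level of 20.0 and were tested with limma, and all 37 of the amino acid genes were among them. The strain is known as a prototroph. HIS3, LYS2, LEU2, URA3 and MET17, some of which are deleted in common laboratory derivatives of S288C, had signals of 4083 to 16795 on the 6 arrays, far above background, while TRP1 was not analysed here. Log2 signals of arrays correlated at 0.923 to 0.929 across PFA and DMSO and at 0.991 to 0.994 among arrays of the same treatment.

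Amino acid synthesis in yeast is under general control. When any amino acid runs short, uncharged tRNA activates the kinase Gcn2, which phosphorylates the initiation factor eIF2; general translation slows while translation of GCN4 mRNA increases through short open reading frames in its leader. Gcn4 protein then activates genes of most amino acid pathways at once, and the cyclin Pcl5 marks it for rapid breakdown. Because this control acts largely on translation, the GCN4 transcript level does not report how much Gcn4 protein a cell holds. Single pathways have regulators of their own as well, such as Leu3 for leucine, which responds to the intermediate alpha-isopropylmalate, and Lys14 for lysine, which responds to alpha-aminoadipate semialdehyde.

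The question addressed was how transcripts of these pathways differed between PFA-treated and solvent-treated cells. Most amino acid synthesis genes changed little: 28 of 37 differed by less than 1.2-fold between the groups, and the median absolute log2 change was 0.15. That median was 0.32 over all genes tested and 0.24 over the brightest 10% of them, where most of the listed genes lie. The genes that changed by at least 1.5-fold were all in the branched-chain pathway, where LEU1, BAT2 and LEU9 fell to 0.485, 0.508 and 0.54 of their DMSO levels. Between these limits lay LYS4, TRP4, THR1 and HIS1, which fell, and ARO3 and LYS1, which rose. No listed gene was at least 1.5-fold higher in PFA. In total 7 of the 37 genes rose (18.9%, against 30.3% of all genes tested), 13 fell (35.1%, against 31.8%) and 17 did not pass a limma adjusted p of 0.05, so that 20 were called (54.1%, against 62% of all genes). A change of at least 1.5-fold was called for 3 of 37 (8.11%), all of them falls, against 23.7% of all genes tested, of which 10.4% fell and 13.3% rose by that much. The groups did not overlap for 24 of the 37 genes (64.9%), against 66.6% of all genes. The balance of directions depended on scaling: quantile normalization gave 16 higher and 10 lower, and centring on the array medians left 5 higher against 16 lower.

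**Figure D1:**
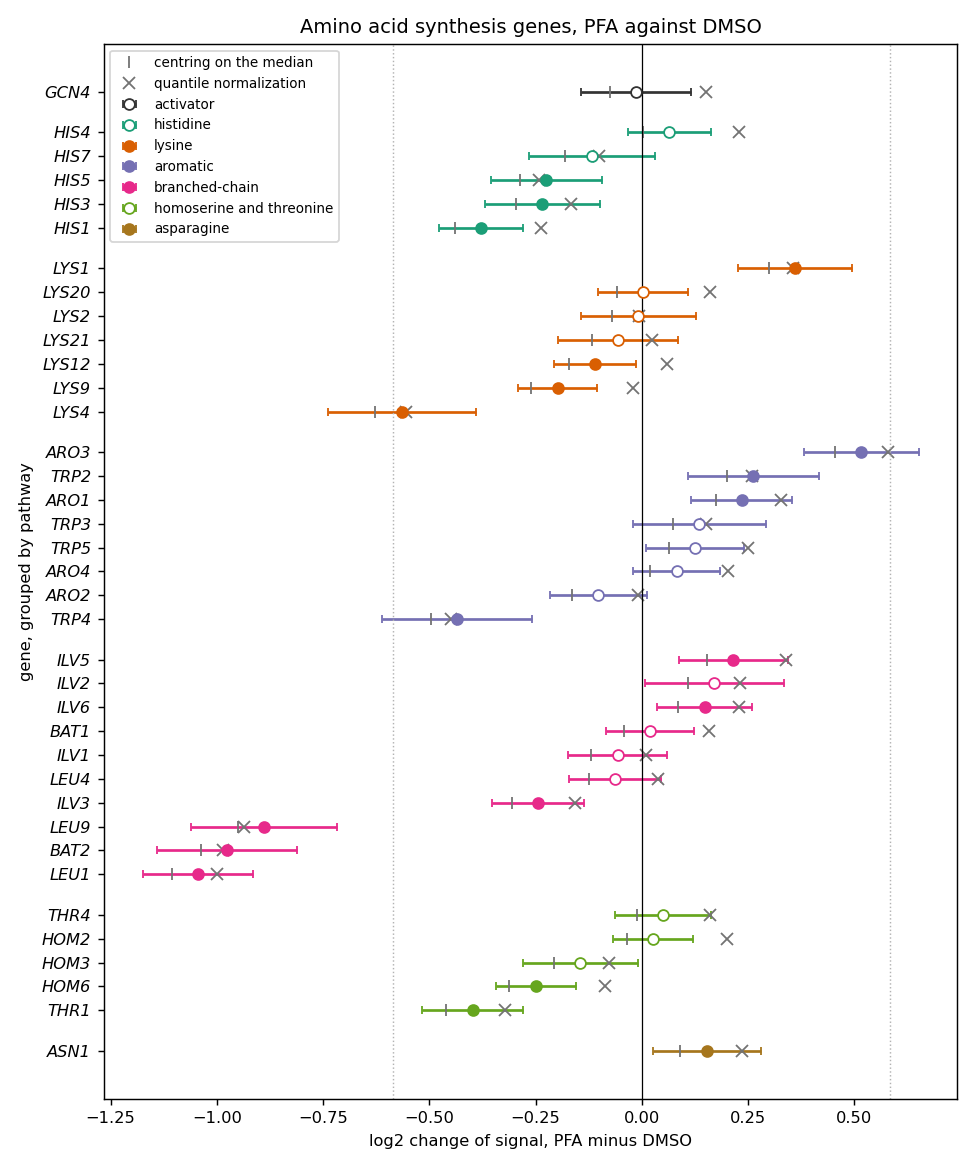
Log2 change of signal (PFA minus DMSO) of GCN4 and the 36 enzyme genes, grouped by pathway, with 95% confidence intervals from limma (n = 3 arrays a group). Filled points passed an adjusted p of 0.05 and open points did not; grey bars and crosses are the same changes under both other scalings, and dotted lines mark 1.5-fold. LEU1, BAT2 and LEU9 lie near -1 under all 3 scalings, while GCN4 lies on opposite sides of 0.

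These genes are strongly expressed, and 27 of the 37 lie among the brightest 10% of genes tested (536 genes), with LEU9 the dimmest at the 61.5th percentile of signal. Genes of that brightest class had a median log2 change of -0.15, with 104 higher and 285 lower, against a median of -0.02 for all genes. Centring moved the median of this class to -0.21, and quantile normalization to -0.02, so small changes of bright genes shift with the scaling. Within it, 15.1% of genes changed at least 1.5-fold, and 1 of the 27 amino acid genes found there, LEU1, did (3.7%). The median absolute log2 change was 0.14 for these 27, against 0.24 for the whole brightest class, and 0.31 for the 10 dimmer ones. Of the 27, 13 were called (48.1%), 5 higher and 8 lower, against 72.6% of that class. Whether high signals compress the changes was not tested.

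**Figure D2:**
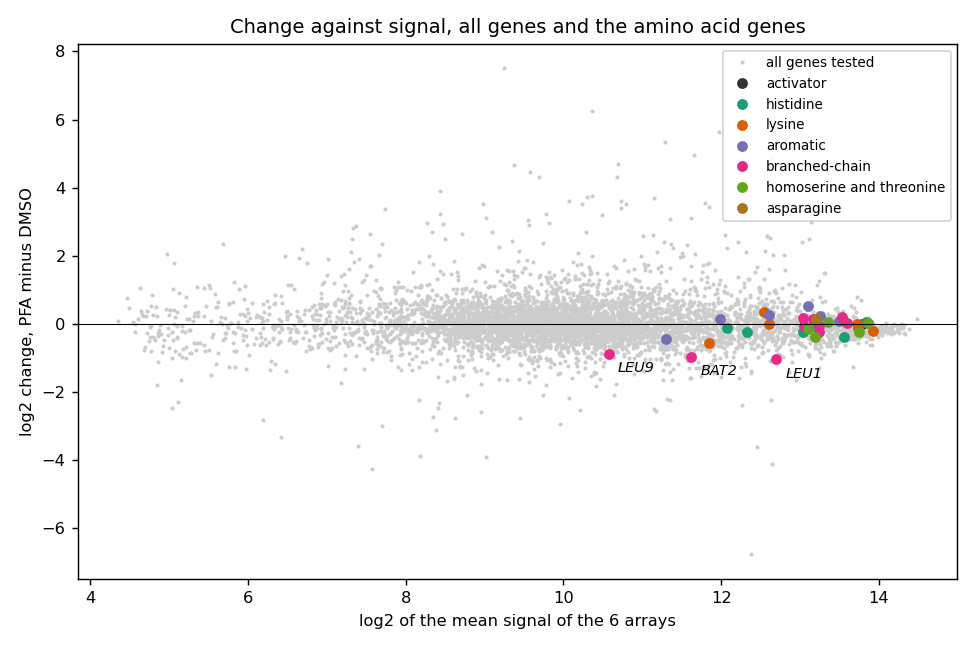
Log2 change (PFA minus DMSO) against the log2 of the mean signal of the 6 arrays for all 5356 genes tested (grey) and the 37 amino acid genes (coloured by pathway). Most coloured points sit at high signal close to 0, and LEU1, BAT2 and LEU9 lie below them.

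GCN4 (YEL009C), the activator, had signals of 13753, 13405 and 14911 on the PFA arrays and 15283, 13971 and 13242 on the DMSO arrays. The groups overlapped throughout, and the log2 change was -0.01 ± 0.06 (SE; limma adjusted p = 0.858), with a 95% confidence interval of -0.14 to 0.12. Under quantile normalization the same gene was called higher (log2 change 0.15, limma adjusted p = 0.0307), and without DMSO replicate 1 or without PFA replicate 2 its change was 0.04 or 0.02, neither called.

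Genes that set the amount of Gcn4 protein were read beside it. PCL5 (YHR071W), the cyclin that targets Gcn4 for degradation and is itself known as a Gcn4 target, had signals of 5236, 5170 and 5482 in PFA, against 2219, 2342 and 2496 in DMSO. Every PFA array was above every DMSO array, a 2.25-fold rise (log2 change 1.17 ± 0.07, SE; limma adjusted p = 2.76e-08). GCN2, the kinase, was at 1046 ± 62.4 in PFA and 883.9 ± 65.4 in DMSO (SD, n = 3), a 1.18-fold rise (limma adjusted p = 0.0265). That call was lost under both other scalings (adjusted p = 0.0807 and 0.0812) and without DMSO replicate 1, PFA replicate 1 or PFA replicate 3 (adjusted p = 0.0551 to 0.0989). Of the 12 genes of this kind, which also include subunits of eIF2 and of its exchange factor eIF2B, 3 rose and 3 fell. A further 6 were not called, so that 50% were called, against 62% of all genes tested, with PCL5 the single change past 1.5-fold. After centring or quantile normalization 1 rose and 3 fell. GCN20, which acts with Gcn1 on Gcn2, fell (log2 change -0.31). Of the eIF2B subunit genes listed, GCD7 (-0.34) and GCN3 (-0.19) fell, GCD2 rose (0.20, limma adjusted p = 0.0471), and GCD1 (-0.05) and GCD6 (-0.08) were not called.

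The branched-chain pathway makes isoleucine, valine and leucine, largely in mitochondria. Of its 10 listed genes, 2 rose, 4 fell and 4 were not called (after centring 1 rose and 4 fell, after quantile normalization 4 and 4). The share called was 60%, against 62% of all genes tested. Both subunits of acetolactate synthase, the shared entry enzyme, were slightly higher in signal. ILV2, the catalytic subunit, was at 8898 ± 821 in PFA and 7898 ± 614 in DMSO (SD, n = 3; log2 change 0.17, limma adjusted p = 0.0661), a difference that passed the threshold without PFA replicate 2 (adjusted p = 0.0359). ILV6, the regulatory subunit, rose 1.11-fold (adjusted p = 0.0239), a call that was lost when any array but PFA replicate 3 was left out (adjusted p = 0.0502 to 0.117), after centring (0.18) and in limma without the variance trend (0.0749). ILV5, encoding the reductoisomerase that acts next, rose 1.16-fold, with 12485, 12474 and 13364 in PFA against 10369, 10735 and 11953 in DMSO. ILV3, the dihydroxyacid dehydratase gene, fell, with 8788, 8641 and 9206 in PFA against 10355, 10477 and 10715 in DMSO (log2 change -0.24 ± 0.05, SE; limma adjusted p = 0.000959). ILV1, the threonine deaminase gene that commits threonine to isoleucine, differed by -0.06 on the log2 scale (adjusted p = 0.379).

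The leucine branch leaves the valine precursor through alpha-isopropylmalate synthase, for which yeast has a main gene, LEU4, and a second, LEU9. LEU4 (YNL104C) had signals of 9338, 9646 and 9454 in PFA and 10294, 9866 and 9560 in DMSO. The groups overlapped, and the change was -0.06 ± 0.05 (SE, log2; limma adjusted p = 0.295). LEU9 (YOR108W) had 1106, 1058 and 1049 in PFA, against 1901, 1914 and 2139 in DMSO, without overlap, and was 1.85-fold lower (log2 change -0.89 ± 0.08, SE; limma adjusted p = 1.03e-06). LEU1 (YGL009C), the isopropylmalate isomerase of the following step, had 4535, 4112 and 4387 in PFA, against 8700, 9013 and 9161 in DMSO. Each PFA value was far below each DMSO value, and the gene was 2.06-fold lower (log2 change -1.04 ± 0.06, SE; limma adjusted p = 1.93e-08), the largest fall among the 37 and the 167th largest among all genes tested.

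The last step, transamination, is carried out by a mitochondrial enzyme, Bat1, and a cytosolic enzyme, Bat2. BAT1 (YHR208W) had 12036, 12708 and 12802 in PFA and 11986, 12361 and 12698 in DMSO, nearly the same range (log2 change 0.02, limma adjusted p = 0.742, 95% confidence interval -0.08 to 0.12), but it was called higher after quantile normalization (0.16, adjusted p = 0.0066). BAT2 (YJR148W) had 2239, 2089 and 2040 in PFA, against 3880, 4416 and 4237 in DMSO, and was 1.97-fold lower with no overlap (log2 change -0.98 ± 0.08, SE; limma adjusted p = 2.92e-07). The falls of LEU1, LEU9 and BAT2 passed the test in all 15 alternatives, with log2 changes of -1.11 to -1.001 for LEU1, -0.95 to -0.83 for LEU9 and -1.04 to -0.93 for BAT2.

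**Figure D3:**
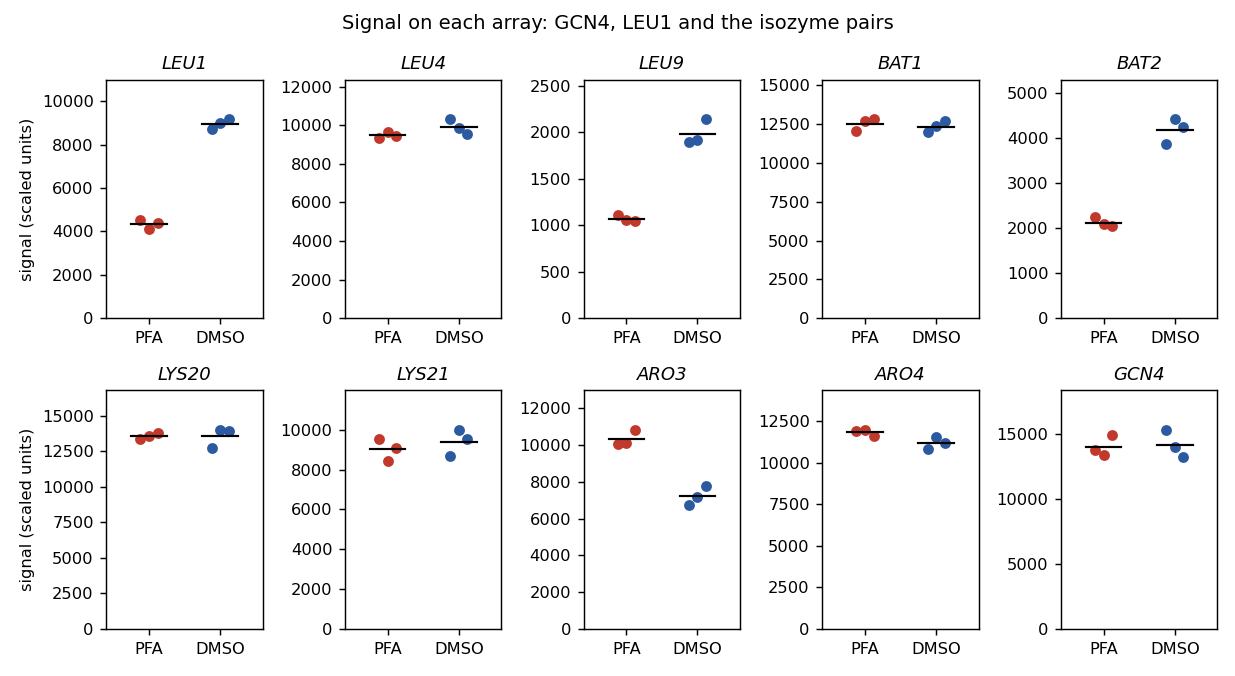
Signal on each of the 3 PFA arrays (red) and 3 DMSO arrays (blue) for LEU1, the 4 isozyme pairs and GCN4, each panel with its own axis from 0 and the group mean as a black line. LEU1, LEU9 and BAT2 are separated with PFA below DMSO, ARO3 with PFA above, and LEU4, BAT1, LYS20, LYS21 and GCN4 overlap.

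Leucine synthesis has further genes outside the 37. LEU2, encoding isopropylmalate dehydrogenase, which follows Leu1, was at 9235 ± 279 in PFA and 11810 ± 231 in DMSO (SD, n = 3), 1.28-fold lower (limma adjusted p = 4.22e-05). OAC1, a mitochondrial carrier known to export alpha-isopropylmalate, had 2817, 2506 and 2714 in PFA, against 4911, 5134 and 5017 in DMSO, and was 1.88-fold lower (adjusted p = 2.44e-07). The regulator gene LEU3 differed by 0.07 ± 0.08 on the log2 scale (SE, adjusted p = 0.513), with 578, 558 and 596 in PFA and 541, 589 and 525 in DMSO. LEU1, LEU2, OAC1, LEU4, ILV2, ILV5 and BAT1 are known as Leu3 targets, a set written down after the values were seen. The first 3 of them fell, ILV5 rose, and LEU4, ILV2 and BAT1 were not called.

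Lysine is made in fungi from alpha-ketoglutarate through alpha-aminoadipate. Of the 7 listed genes, 1 rose, 3 fell and 3 were not called (after quantile normalization 2 rose and 1 fell). The share called was 57.1%, against 62% of all genes tested, and every change was under 1.5-fold. LYS4, the largest of them, passed 1.5-fold after centring and without DMSO replicate 1, PFA replicate 1 or PFA replicate 3, with log2 changes of -0.63, -0.63, -0.60 and -0.59. The homocitrate synthase isozyme genes of the entry step did not pass it: LYS20 had 13344, 13565 and 13759 in PFA and 12710, 13973 and 13942 in DMSO (log2 change 0.00, limma adjusted p = 0.964). LYS21 had 9556, 8454 and 9085 in PFA and 8677, 9985 and 9524 in DMSO (log2 change -0.06, limma adjusted p = 0.476). Both groups overlapped in both genes, and these near-identical copies could share labelled RNA, which was not tested.

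LYS4 (YDR234W), the homoaconitase gene of the next step, changed most in the pathway, with 3117, 2712 and 3042 in PFA against 4010, 4469 and 4649 in DMSO. Its values did not overlap and it was 1.48-fold lower (log2 change -0.57 ± 0.08, SE; limma adjusted p = 5.93e-05). LYS1, encoding the saccharopine dehydrogenase that releases lysine, moved the other way, with 6538, 6569 and 7025 in PFA against 4956, 5324 and 5410 in DMSO, a 1.28-fold rise (adjusted p = 0.000272). LYS9, the saccharopine dehydrogenase gene of the preceding step, was 1.15-fold lower (adjusted p = 0.00143) but not called after quantile normalization (log2 change -0.02, adjusted p = 0.69). LYS12, the homoisocitrate dehydrogenase gene, was 1.08-fold lower at an adjusted p of 0.0484, a limma call that was lost when any single array was left out (adjusted p = 0.0518 to 0.156) and in limma without the filter (0.0534), with the replicate block (0.0628) or without the variance trend (0.158). LYS2, the aminoadipate reductase gene, had a log2 change of -0.01 (adjusted p = 0.922), and the regulator gene LYS14 0.05 ± 0.08 (SE, adjusted p = 0.583).

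The aromatic pathway runs from erythrose 4-phosphate and phosphoenolpyruvate to chorismate and then divides to tryptophan, tyrosine and phenylalanine. Of its 8 listed genes, 3 rose, 1 fell and 4 were not called (after quantile normalization 5 rose and 1 fell, after centring 3 and 2). The share called was 50%, against 62% of all genes tested. The entry enzyme, DAHP synthase, has an isozyme inhibited by phenylalanine, Aro3, and another inhibited by tyrosine, Aro4. ARO3 (YDR035W) had 10051, 10131 and 10808 in PFA, against 6743, 7170 and 7777 in DMSO, without overlap. It rose 1.43-fold (log2 change 0.52 ± 0.06, SE; limma adjusted p = 1.48e-05), the largest rise among the 37. ARO4 (YBR249C) had 11908, 11968 and 11637 in PFA and 10826, 11540 and 11196 in DMSO; its values did not overlap, but the change of 0.08 on the log2 scale did not pass the test (limma adjusted p = 0.147).

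Of the enzymes leading to chorismate, ARO1, encoding the pentafunctional arom protein, rose 1.18-fold (adjusted p = 0.00238), and the chorismate synthase gene ARO2 had a log2 change of -0.10 (adjusted p = 0.107). In the tryptophan branch TRP2, encoding anthranilate synthase, rose 1.2-fold, with 6547, 6384 and 7546 in PFA against 5494, 5620 and 5921 in DMSO (adjusted p = 0.00641). TRP4, the phosphoribosyl transferase gene of the following step, fell, with 2358, 1998 and 2107 in PFA against 2752, 2956 and 3008 in DMSO (1.35-fold lower, adjusted p = 0.000522). TRP3, which encodes a bifunctional enzyme of the branch, had a log2 change of 0.14 (adjusted p = 0.119). TRP5, the tryptophan synthase gene, had 0.13 (adjusted p = 0.0553), which passed the threshold without PFA replicate 2 (adjusted p = 0.0423). Neighbouring steps of the branch therefore held a gene that rose and a gene that fell.

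Beyond chorismate, TYR1, the prephenate dehydrogenase gene of the tyrosine branch, had 2412, 2376 and 2271 in PFA, against 1431, 1502 and 1524 in DMSO, a 1.58-fold rise (adjusted p = 6.67e-06). The phenylalanine branch gene PHA2 was 1.43-fold lower (adjusted p = 0.00019), and the chorismate mutase gene ARO7, shared by both branches, 1.25-fold lower (adjusted p = 0.00214). These 3 genes are outside the 37.

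Histidine is made from ATP and phosphoribosyl pyrophosphate. Of the 5 listed genes, none rose, also at an unadjusted limma p under 0.05, 3 fell and 2 were not called (after quantile normalization 1 rose and 3 fell). Calls made up 60% here and 62% over all genes tested, where higher calls made up 30.3%. HIS1 (YER055C), the entry enzyme and site of feedback by histidine, had 10555, 10260 and 10741 in PFA, against 13946, 13584 and 13478 in DMSO. The groups were separate, and the gene was 1.3-fold lower (log2 change -0.38 ± 0.05, SE; limma adjusted p = 1.44e-05). HIS3, the dehydratase gene, was 1.18-fold lower and HIS5, the aminotransferase gene, 1.17-fold lower. HIS7, encoding imidazole glycerol phosphate synthase, had a log2 change of -0.12 (adjusted p = 0.152). HIS4, which encodes a multifunctional enzyme and is a classical Gcn4 target, had 15029, 15121 and 14606 in PFA and 14832, 14258 and 13707 in DMSO, a log2 change of 0.07 (limma adjusted p = 0.229) that quantile normalization turned into a call (0.23, adjusted p = 0.000674). Outside the list, HIS6, the isomerase gene, fell 1.82-fold, with 728, 707 and 700 in PFA against 1279, 1306 and 1301 in DMSO (adjusted p = 7.34e-07), and HIS2, the histidinol phosphatase gene, was 1.35-fold lower.

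The route from aspartate gives homoserine, threonine and, through homoserine, methionine. Of its 5 listed genes, none rose, also at an unadjusted limma p under 0.05, 2 fell and 3 were not called (after quantile normalization 2 rose and 1 fell, after centring none and 3). Calls made up 40% here, against 62% over all genes tested. THR1 (YHR025W), the homoserine kinase that commits homoserine to threonine, had 8381, 8026 and 7856 in PFA, against 10110, 11098 and 10777 in DMSO. It was 1.32-fold lower with separate groups (log2 change -0.40 ± 0.05, SE; limma adjusted p = 4.48e-05). HOM6, the homoserine dehydrogenase gene, was 1.19-fold lower (adjusted p = 0.0003), a call lost after quantile normalization (log2 change -0.09, adjusted p = 0.0662). HOM3, the aspartate kinase gene at the entry, had a log2 change of -0.14 (adjusted p = 0.0604), which passed the threshold without DMSO replicate 1 (adjusted p = 0.0498) or PFA replicate 3 (0.0326). HOM2 and THR4, the genes of aspartate semialdehyde dehydrogenase and threonine synthase, had log2 changes of 0.03 and 0.05, neither called.

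Asparagine synthetase is encoded by ASN1 and ASN2. ASN1 (YPR145W) had 9849, 9448 and 10487 in PFA, against 9157, 8415 and 9223 in DMSO, a 1.11-fold rise (log2 change 0.15 ± 0.06, SE; limma adjusted p = 0.0378). Leaving out DMSO replicate 2, PFA replicate 1 or PFA replicate 3 ended that call (adjusted p = 0.168, 0.0699 and 0.118), as did centring (0.187) and limma without the variance trend (0.106). ASN2, outside the list, rose 1.38-fold, with 12793, 12936 and 13849 in PFA against 9183, 9702 and 9726 in DMSO (adjusted p = 6.56e-06). The pair is similar in sequence, and cross-hybridization between its members was not tested.

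In the pair ASN1 and ASN2, of which ASN2 is outside the list, both members were called higher. In 3 of the 4 isozyme pairs within the list 1 member was called and its partner was not, while 62% of all genes tested were called. That tally rests on the scaling: quantile normalization also called ARO4 (log2 change 0.20, limma adjusted p = 0.00137), BAT1 and LYS20 (0.16 each, limma adjusted p = 0.0066 and 0.00778) as higher, so that the ARO and BAT pairs had both members called and the LYS pair had 1. The difference within a pair was tested on the log2 ratio within each array, from the deposited signals only. A constant factor per array cancels in that ratio, but a scaling that depends on signal does not. The ratios were not tested after quantile normalization. The LEU4 to LEU9 ratio was higher by 0.83 in PFA, with means of 3.15 ± 0.06 in PFA and 2.32 ± 0.14 in DMSO (SD, n = 3). The BAT2 to BAT1 ratio was lower in PFA (difference -0.995), and the ARO3 to ARO4 ratio was higher by 0.43. For these 3 pairs the groups did not overlap, with an exact two-sided permutation p of 0.1, the smallest that 3 against 3 arrays can give (0.133 adjusted over the 4 pairs), so the design cannot reach 0.05. The LYS20 to LYS21 ratio differed by 0.06 with overlapping groups (exact permutation p = 0.5).

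Of the 36 enzyme genes, LEU1, LYS4 and ILV3 encode dehydratases that carry an iron-sulfur cluster, a grouping made after their values were seen. All 3 fell, with log2 changes of -1.04, -0.57 and -0.24, while 31.8% of all genes tested were called lower. Because the values were known when the group was formed, the shared direction cannot test the grouping, and no other test of it was made. Each call held in all 15 alternatives, which bear on each gene alone and not on the grouping. In a bulk culture, lower RNA per cell and fewer cells with the RNA cannot be told apart.

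A short list of genes for amino acid breakdown was read beside the pathways. It was chosen with earlier results of these data known, so its counts cannot test whether breakdown genes rose as a class. Of 6 genes listed for breakdown of the same amino acids, 5 rose, each by more than 1.5-fold, and 1 was not called by limma, with none lower at an unadjusted p under 0.05 either. The median log2 change was 1.21, and higher calls made up 30.3% over all genes. The transaminase gene BAT2, which was 1.97-fold lower, was counted with synthesis and is not among these 6. ARO10 (YDR380W), the decarboxylase that turns phenylpyruvate and related keto acids toward fusel alcohols, had 278, 227 and 362 in PFA, against 39.4, 28.1 and 51.9 in DMSO. All PFA values were above all DMSO values, a 7.36-fold rise (log2 change 2.88 ± 0.24, SE; limma adjusted p = 7.13e-07). The DMSO signals lie near the background of 20.0, and the size depends on the pseudocount: the log2 change was 2.45 with 16 and 1.76 with 64 added to each signal. ARO9, the aromatic aminotransferase that feeds it, rose 2.77-fold, with 1074, 1009 and 1277 in PFA against 402, 366.5 and 443 in DMSO. PDC6 and PDC5, genes of pyruvate decarboxylases that can also act on branched-chain keto acids, rose 2.73-fold and 1.97-fold. PDC1, a gene of the same family, was not on the list. GLY1, encoding threonine aldolase, which splits threonine to glycine, rose 1.91-fold, with 7274, 6962 and 8432 in PFA against 3413, 4215 and 4228 in DMSO. CHA1, the serine and threonine deaminase gene, had a log2 change of 0.17 (adjusted p = 0.318), and ARO80, the activator gene of ARO9 and ARO10, 0.06 (adjusted p = 0.694). These counts were the same after centring and after quantile normalization.

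**Figure D4:**
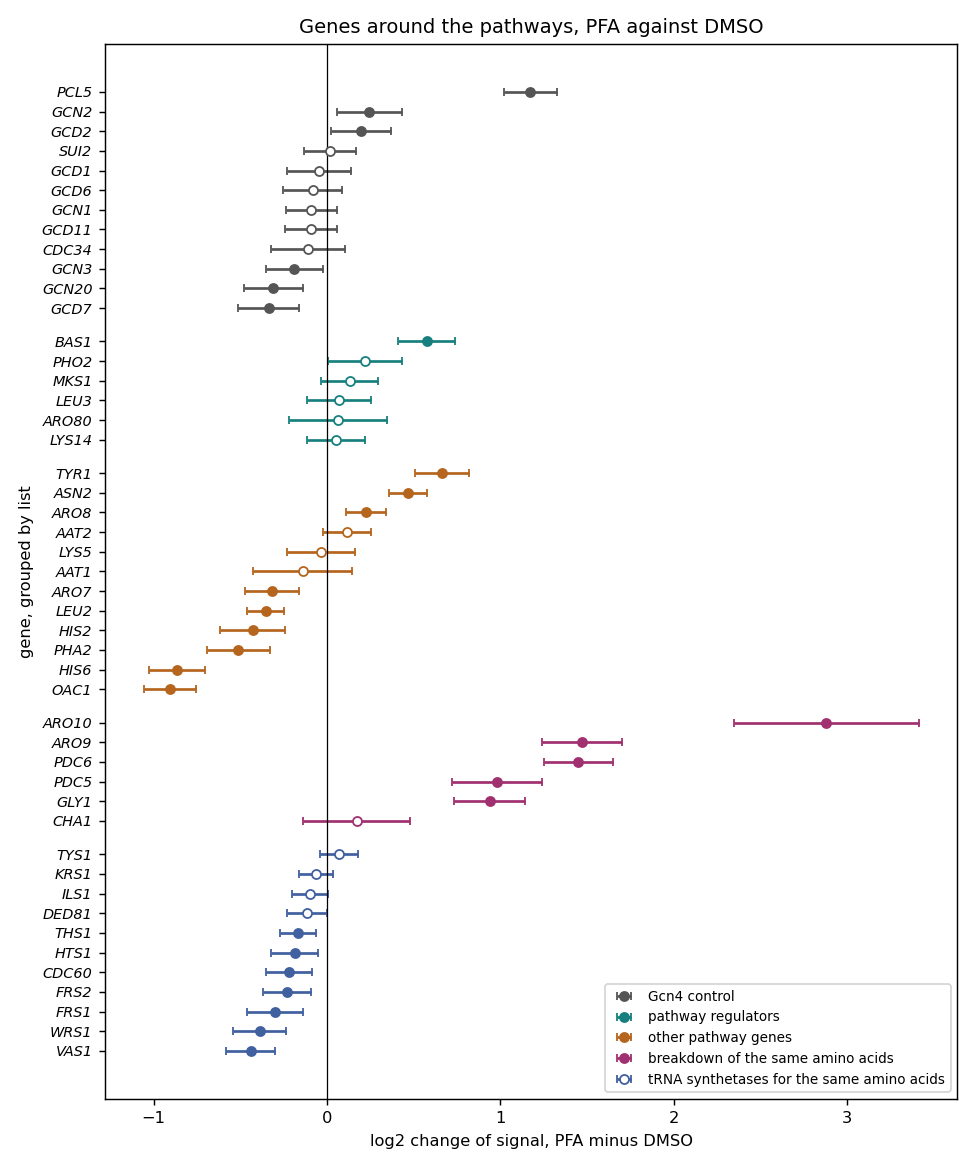
Log2 change of signal (PFA minus DMSO) with 95% confidence intervals for genes around the pathways, by list; filled points passed a limma adjusted p of 0.05 (n = 3 arrays a group). Breakdown genes and PCL5 extend to the right, OAC1 and HIS6 lie lowest, and the tRNA synthetase genes lie between -0.44 and 0.07.

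Among 6 regulator genes of single pathways, 1 rose, BAS1, and 5 were not called (16.7% called, against 62% of all genes tested). BAS1, an activator of histidine and purine genes, was at 1262 ± 28.6 in PFA and 848.4 ± 34.9 in DMSO (SD, n = 3), a 1.49-fold rise (adjusted p = 3.41e-05). Of 12 further pathway genes with a probe set, 3 rose, 6 fell and 3 were not called (75% called, against 62%). Those that rose were TYR1, ASN2 and the aromatic aminotransferase gene ARO8. OAC1, HIS6, PHA2, HIS2, LEU2 and ARO7 fell, and the median log2 change of the 12 was -0.23. Among 11 tRNA synthetase genes for the same amino acids, none rose, 7 fell (63.6%, against 31.8% of all genes tested) and 4 were not called. All of these changes were under 1.5-fold. After centring 10 fell, and after quantile normalization 5 fell and 1 rose. Many of the synthetase genes are bright, and among the brightest 10% of genes 285 of 536 were called lower and 104 higher. The share of 31.8% is therefore not matched for signal.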

How the data were processed

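RNA from 6 cultures of S. cerevisiae was biotin-labelled and read on 1 Affymetrix array per culture. The deposited table gives a linear signal intensity for each probe set, and equal trimmed means show that the authors had scaled the arrays to a common level. GCOS 1.1 is named in the submitters' processing notes, but no label gives the summary or background step. Of 10928 probe sets, 5498 matched an S. cerevisiae gene by the platform's gene identifiers in RefSeq's gene table (12 symbols updated). Groups and replicate numbers came from the titles.

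Background was set at a signal of 20.0, below which lay 95% of 1746 probe sets named for another organism (mean log2 signal). The brightest probe set stood for a gene. Log2 signals, with no pseudocount, were compared by limma (version 3.58.1, R 4.3.3, lmFit, eBayes with trend, two-sided, Benjamini-Hochberg over 5356 genes, threshold 0.05). On simulated data the procedure called 76.1% of 1.5-fold changes and 0.097% of unchanged genes. The simulation changed far fewer genes than were called here and used independent noise, so it does not bear on the scaling. A fold change compares geometric means, whereas each mean ± SD is on the linear scale. Isozyme ratios used exact permutation tests.

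The genes, lists and tests were chosen with earlier results of these data known. Values on each array are given for GCN4, listed genes changed at least 1.5-fold, 4 isozyme pairs and further genes picked after their values were seen. Genes around the pathways were named where they changed at least 1.5-fold, with LEU3, LYS14, BAS1, GCN2, PCL5 and LEU2 whatever their result; the others were added after their values were seen. Alternatives were quantile normalization, centring, a pseudocount of 16 or 64, testing without the filter or above the median signal, eBayes with no trend, a replicate block, leaving out each array and every probe set. Promoter motifs and sequences were not analysed here. Plots used Python 3.11.15 and matplotlib 3.10.9.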

Additional observations from a re-analysis of the deposited data

How the results depend on the processing

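Of the 37 genes, 16 kept their direction and their side of the threshold in all 15 alternatives: 5 that rose (LYS1, ARO1, ARO3, TRP2 and ILV5), 10 that fell (LEU1, LEU9, BAT2, ILV3, LYS4, HIS1, HIS3, HIS5, TRP4 and THR1) and TRP3, which was not called. The count of listed genes higher in PFA, 7 as reported, was 16 after quantile normalization, 5 after centring and 8 with a replicate block, and 5 to 8 when single arrays were left out. The count lower, 13 as reported, was 10 after quantile normalization, 16 after centring, 12 with the replicate block and 12 to 14 without single arrays. Changes of at least 1.5-fold numbered 3 or 4, the fourth being LYS4. Quantile normalization added calls for ARO4, BAT1, HIS4, HOM2, ILV2, LYS20, THR4, TRP5 and GCN4, all higher, and centring for ARO2, HIS7 and HOM3, all lower. Over all genes, 1622 rose and 1701 fell, and a stricter filter, which tested 2724 genes in place of 5356, gave 813 and 1080; leaving out single arrays gave 1456 to 1572 and 1507 to 1694.

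Directions that turned belonged to small changes. Under quantile normalization the log2 change was 0.15 for GCN4, 0.010 for ILV1, 0.038 for LEU4, 0.060 for LYS12 and 0.024 for LYS21. After centring it was -0.042 for BAT1, -0.035 for HOM2, -0.059 for LYS20, -0.012 for THR4 and -0.011 for LYS14. When single arrays were left out it ran from -0.061 to 0.043 for GCN4, from -0.0020 to 0.047 for BAT1, from -0.065 to 0.022 for LYS2 and from -0.042 to 0.026 for LYS20. The cause was not tested.

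The replicate numbers did not pair the arrays: deviations from the group means correlated at -0.05, -0.09 and 0.16 for replicates 1, 2 and 3, and 1 of 3 PFA arrays correlated best with its own number. With the replicate block the call of LYS12 was lost and ILV2 was called. The planned count of promoters with a Gcn4 motif was not run, and an all-probe-set fit changed no call among the 37, each of which has 1 probe set.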
